A study of Mus musculus with 26 samples.

Results

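Ribosome-bound RNA of GnRH neurons was compared between ovariectomized female mice and females with ovaries in diestrus, a stage of the estrous cycle. The comparison used 6 of the 26 libraries of the study, which were picked by their labels and by no measured value. They were 3 pools of ovariectomized females (7, 7 and 7 mice) and 3 pools of intact females in diestrus (7, 6 and 5 mice), numbered as replicates 0 to 2. All mice were adults of 55 to 165 days with the genotype GnRH CRE x Floxed L10a-GFP. In these offspring Cre recombinase under control of the GnRH gene switches on a GFP-tagged copy of the ribosomal protein L10a, so controls and operated mice carried the same alleles. Recombination is permanent, so a cell that used the GnRH promoter only earlier in life carries the tag as well. Translating ribosome affinity purification (TRAP) pulled the tagged ribosomes and their mRNA out of punches of the preoptic area of the hypothalamus. The pulled-down RNA is called the immunoprecipitate, and the RNA left behind, from the same mice, the supernatant. The time since ovariectomy is not given in the sources used here.

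GnRH neurons release gonadotropin-releasing hormone into the pituitary portal blood and so set the secretion of luteinizing hormone and follicle-stimulating hormone. Ovarian estradiol and progesterone feed back on these neurons mostly through other neurons. Among those, the kisspeptin neurons of the preoptic area express estrogen receptor alpha and contact GnRH neurons. Removal of the ovaries ends this feedback and gonadotropin secretion rises. Estradiol is known to stimulate Kiss1, the kisspeptin gene, in the preoptic area and to repress it in the arcuate nucleus.

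Gnrh1, the gene of the hormone precursor and the defining marker of the tagged cells, was checked first. It lies on chromosome 14 from 67745181 to 67749439 (mm10) and stood at 20723, 16734 and 3140.4 CPM in the intact immunoprecipitates and at 6494, 5041 and 8669 CPM in the ovariectomized ones. CPM are counts per 1000000 counts of the library, after scaling of the libraries to each other. Intact replicate 2 was the lowest of the 6 pools, below all ovariectomized pools, and the other 2 intact pools were the highest. The supernatants held 98.7, 68.6 and 1561 CPM in intact and 284, 455 and 94.8 CPM in ovariectomized pools. Each of the 6 immunoprecipitates was above its own supernatant, but in intact replicate 2 the fractions lay closest (3140.4 against 1561 CPM). How fully each pull-down captured the tagged ribosomes was not tested. Between the groups Gnrh1 differed by -1.01 ± 0.62 (SE) on the log2 scale (ovariectomized minus intact) with an unadjusted p of 0.127 in edgeR's quasi-likelihood test. Fewer GnRH neurons in a pool and less Gnrh1 mRNA per neuron cannot be told apart in these libraries. Against intact replicate 2 alone the log2 difference was 1.10, and against the mean of replicates 0 and 1 it was -1.48, so its direction rests on the choice of intact pool.

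Intact replicate 2 lay closer to the ovariectomized immunoprecipitates than to the other intact ones. Its library carries a number between 11 and 30 like those of the 3 ovariectomized pools, while intact replicates 0 and 1 carry numbers between 1 and 10, and what the numbering stands for is not given in the sources used here. Across all tested genes, log2 CPM of replicate 2 correlated at r 0.973 to 0.979 with the ovariectomized pools and at 0.946 and 0.952 with intact replicates 0 and 1. Replicates 0 and 1 correlated with each other at 0.945, no higher than with replicate 2. Genes share libraries and depth in such a correlation, which is a description. For genes named below, the fit of libraries 11 to 30 only sets the ovariectomized pools against replicate 2 as the 1 intact female pool. That pool is also the one in which Gnrh1 rose least from supernatant to immunoprecipitate. The supernatant of the same pool held 298 reads of 4 Y-linked genes (Eif2s3y, Ddx3y, Kdm5d and Uty) against 25 to 46 in the other female supernatants, while its immunoprecipitate, with 50, lay within the 15 to 56 of all female immunoprecipitates. The 6 immunoprecipitates had total counts of 31834256 to 49621846.

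No single gene passed the main test between ovariectomized and intact immunoprecipitates. Of 16160 genes tested with edgeR's quasi-likelihood test, 0 passed at a Benjamini-Hochberg adjusted p under 0.05 (0%), and the adjusted p was 0.994 or higher for every gene. At an unadjusted p under 0.05 there were 591 genes (3.66%), 257 higher (1.59%) and 334 lower (2.07%) after ovariectomy. Limma voom called 0 genes and DESeq2 called 5 (0.0309%). The median log2 difference of all genes was -0.01. Pools spread widely, and the biological coefficient of variation shared by all genes was 0.56 in the immunoprecipitates and 0.181 in the supernatants. Because none passed, values below are levels of the pools with their log2 differences, and each p is the unadjusted value of edgeR's quasi-likelihood test unless another tool is named.

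The CPM values of the 3 intact and the 3 ovariectomized pools did not overlap for 1155 genes (7.15%), 600 higher (3.71%) and 555 lower (3.43%) after ovariectomy. Adding an unadjusted p under 0.01 and a mean of at least 5 CPM left 28 genes (0.173%), 10 higher (0.0619%) and 18 lower (0.111%). Of these, 4 had predicted or ribosomal protein symbols and were not named, and at most 12 per direction were kept by size of difference, which left 22 genes, 12 lower and 10 higher. For these the gap between the groups, also against intact replicate 2, follows from how they were chosen and is a description. The median log2 difference of the 12 lower genes was -1.40 against intact replicates 0 and 1 and -0.89 against replicate 2, and that of the 10 higher genes was 1.30 and 0.64.

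**Figure D1:**
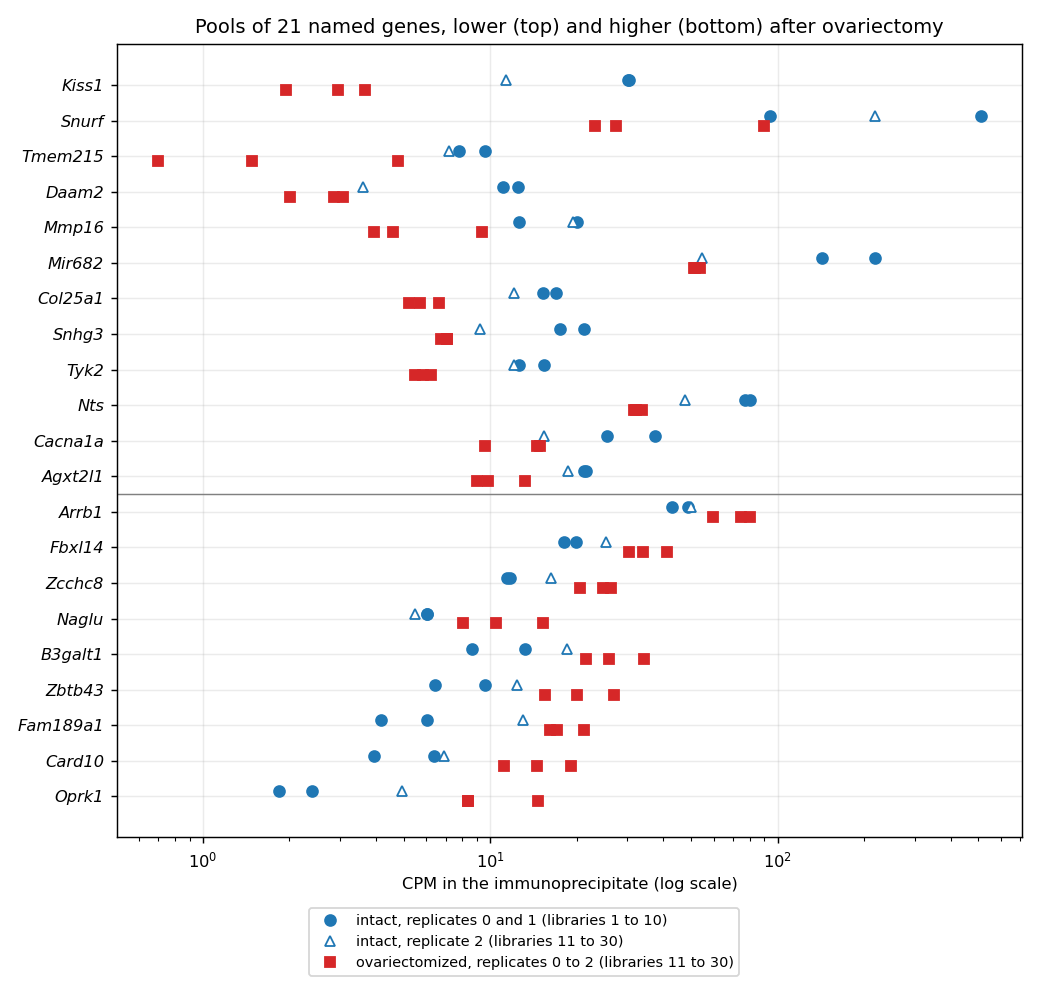
Level of 21 of the 22 genes in every female immunoprecipitate, in CPM on a log axis, with 1 symbol per pool. In all 21 the ovariectomized pools (red squares) lie on 1 side of the intact pools (blue), and intact replicate 2 (open triangles) is often the intact pool nearest to them, as for Kiss1 with 11.4 CPM.

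Kiss1 showed the largest difference among the 22 genes. It encodes kisspeptin, the peptide that drives GnRH neurons through the receptor Kiss1r, and lies on chromosome 1 from 133321875 to 133329901. It stood at 30.5, 30.2 and 11.4 CPM in the intact immunoprecipitates and at 2.94, 3.67 and 1.95 CPM after ovariectomy. All 3 ovariectomized pools lay far below the lowest intact pool, which was replicate 2. The means were 24 ± 11 and 2.86 ± 0.862 CPM (SD, n = 3 pools each), 8.41-fold apart. The log2 difference was -3.07 ± 0.65 with an unadjusted p of 0.000275 in edgeR, and DESeq2 called it with an adjusted p of 0.000926. It was -1.99 when only libraries 11 to 30 were fitted and -3.39 without intact replicate 2, and edgeR called it in neither. The supernatants of the same mice held Kiss1 at 19.8, 26.3 and 11 CPM in intact and 4.23, 2.68 and 3.15 CPM in ovariectomized pools. There it fell by 2.51 on the log2 scale and was 1 of only 2 genes of 16360 that passed (0.0122%, edgeR adjusted p 0.00784), beside 1196 genes at an unadjusted p under 0.05 (7.31%). That call was lost in limma voom, with only the groups compared, with libraries 11 to 30 only and without ovariectomized supernatant replicate 1. Without the intact supernatant replicate 2 the supernatant difference was -2.78 (edgeR adjusted p 0.000923). The test of whether the difference itself depended on the fraction gave -0.53 ± 0.69 (edgeR unadjusted p 0.451, adjusted p 0.923). The CPM of Kiss1 overlapped between the fractions in each group, and how much of it came from GnRH neurons and how much from other preoptic cells was not tested. In this annotation Kiss1 overlaps Golt1a and the read-through model Gm28040, and counts of shared exons are uncertain.

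Genes of kisspeptin, neurokinin B and dynorphin signalling, Kiss1 included, lay on both sides of 0. Of 11 members, 2 lay above 0 and 9 below, with a median log2 of -0.36 beside -0.01 for all genes, and 0 passed. Against replicates 0 and 1 the median was -0.61 with 9 of 11 below 0, and against replicate 2 it was 0.17 with 8 of 11 above 0. Tac2, which encodes neurokinin B, stood at 23.4, 19 and 8.32 CPM in intact and 5.86, 8.34 and 6.47 CPM in ovariectomized pools, a log2 difference of -1.29 ± 0.42 (edgeR unadjusted p 0.00813). Intact replicate 2 fell inside the ovariectomized range. Pdyn, the dynorphin precursor gene, stood at 8.94, 16.8 and 5.6 CPM in intact and 5.46, 9.2 and 3.64 CPM in ovariectomized pools with overlapping groups (-0.78 ± 0.50).

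The receptors of these peptides included the largest positive difference of the 22 genes. Oprk1, the kappa opioid receptor through which dynorphin acts, lies on chromosome 1 from 5588466 to 5606131 and stood at 1.84, 2.4 and 4.94 CPM in intact and 14.7, 8.34 and 8.35 CPM in ovariectomized pools. Every ovariectomized pool was above every intact one, and replicate 2 was the highest of the intact pools. The means were 3.06 ± 1.65 and 10.5 ± 3.66 CPM (SD, n = 3), with a log2 difference of 1.77 ± 0.53 and an unadjusted edgeR p of 0.00459. Against intact replicate 2 alone the log2 difference of Oprk1 was 1.01. In the supernatants Oprk1 stood at 12.6, 13 and 7.41 CPM in intact and 8.53, 8.78 and 9.82 CPM in ovariectomized pools with groups that overlapped through intact replicate 2. The supernatant difference of Oprk1 was -0.28 (edgeR unadjusted p 0.173), and without that supernatant, which held more Y-linked reads, it was -0.50 (edgeR unadjusted p 0.0080, adjusted p 0.355). The test of the difference between fractions gave 2.09 ± 0.54 (edgeR unadjusted p 0.000689, adjusted p 0.664) and 2.31 without it. This test holds the same immunoprecipitate values by which Oprk1 was chosen, so its small unadjusted p follows in part from that choice. Tacr3, the neurokinin B receptor, stood at 0.131, 0.125 and 4.57 CPM in intact and 5.89, 2.73 and 6.06 CPM in ovariectomized pools. Intact replicates 0 and 1 held almost none, whereas replicate 2 lay within the ovariectomized range. Without replicate 2 its log2 difference was 5.25 (edgeR adjusted p 0.0463), and with libraries 11 to 30 alone it was 0.11. Kiss1r, which carries the kisspeptin signal into GnRH neurons, stood at 38.1, 44.8 and 25.4 CPM in intact and 26.4, 18.9 and 40.6 CPM in ovariectomized pools with overlapping groups (-0.33 ± 0.34).

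**Figure D2:**
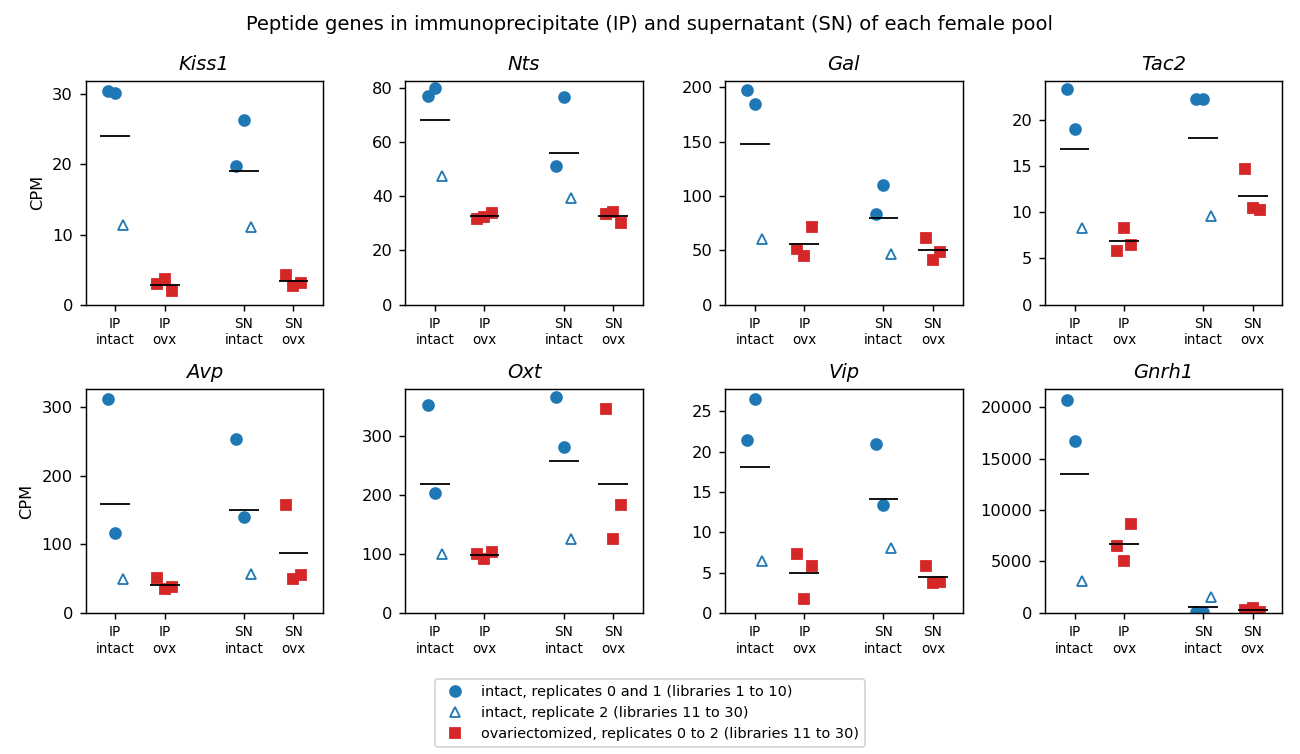
CPM of 8 peptide genes in the immunoprecipitate (IP) and supernatant (SN) of each female pool, with 1 symbol per pool and a bar at the group mean. Kiss1 and Nts are separated between groups in both fractions, while for Gal, Tac2, Avp, Oxt and Vip intact replicate 2 (open triangle) lies near the ovariectomized pools.

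Nts and Gal, both expressed by neurons of the preoptic area, were lower in value after ovariectomy. Nts, the neurotensin gene on chromosome 10 from 102481756 to 102490486, stood at 76.9, 80.01 and 47.5 CPM in intact and 31.7, 32.1 and 33.8 CPM in ovariectomized immunoprecipitates. The 3 ovariectomized pools lay within about 2 CPM of each other and below replicate 2, the lowest intact pool. Its log2 difference was -1.07 ± 0.28 (edgeR unadjusted p 0.00195) and -0.54 in libraries 11 to 30 alone. The supernatants, with 51.3, 76.6 and 39.5 CPM in intact and 33.6, 34 and 30.2 CPM in ovariectomized pools, did not overlap either (-0.78 ± 0.21, edgeR unadjusted p 0.00222, adjusted p 0.653). Gal, which encodes galanin, a peptide that GnRH neurons of female rodents also make, lies on chromosome 19 from 3409915 to 3414544. It stood at 198, 184 and 60.2 CPM in intact and 51.2, 44.8 and 71.2 CPM in ovariectomized pools, with replicate 2 inside the ovariectomized range. Its log2 difference of -1.40 ± 0.43 (edgeR unadjusted p 0.0053) was -1.75 without replicate 2 and -0.11 in libraries 11 to 30 alone.

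The stretch before the start of Nts and Gal is shown because both had lower values and because estradiol can act on promoters through the estrogen response element. The sequences are RefSeq windows of 250 bases before the gene start (GRCm38.p6), printed 5′ to 3′ on the strand of the gene and only as far as the first annotated exon. Capitals mark matches to the 4 motifs searched on both strands. Nts is chr10:102490487-102490668 on the - strand and Gal is chr19:3414545-3414794 on the - strand.
Nts: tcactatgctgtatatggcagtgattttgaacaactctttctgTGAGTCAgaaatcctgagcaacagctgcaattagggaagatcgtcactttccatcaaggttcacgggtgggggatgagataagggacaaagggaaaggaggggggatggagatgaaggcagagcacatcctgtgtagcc
Gal: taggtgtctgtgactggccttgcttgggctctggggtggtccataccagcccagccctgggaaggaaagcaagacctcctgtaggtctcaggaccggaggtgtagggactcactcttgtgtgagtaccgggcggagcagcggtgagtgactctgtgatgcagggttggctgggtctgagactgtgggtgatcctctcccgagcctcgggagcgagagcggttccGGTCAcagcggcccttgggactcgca
The full estrogen response element, GGTCA followed by its reverse complement after 3 free bases, was in 0 of the 16 windows matched among the 22 genes and in 0.0639% of all 32851 mouse windows. A single arm of it, GGTCA, which also counts inside the full element, was in 4 of the 16 (Kiss1, Snurf, Tyk2 and Naglu) and in 35.2% of all windows. Gal, outside the 22, had 1 such arm. The window of Tac2, also outside the 22 and lower in value, was searched too. It had 0 matches to each of the 4 motifs and is not shown. The windows of 2 of the 16, Kiss1 and Col25a1, lie inside the longer GENCODE model of their gene and not before it. That of Kiss1 is therefore not shown. Those of Daam2, Nts, Zcchc8, Naglu, Zbtb43 and Fam189a1 reach in part into the GENCODE model of their gene. For 4 of the 16 RefSeq gave more than 1 window and the first was searched. The cAMP response element TGACGTCA was in 1 of the 16, Daam2 (1.55% of all windows), and the AP-1 site TGANTCA in 1, Nts (6.75%). A match in these letters is a description of the window and not a site of binding.

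All tested members of the list of other preoptic neuropeptides lay below 0, and most of them lay above 0 when set against intact replicate 2 alone. Of 24 tested members 0 lay above and 24 below 0, with a median log2 of -0.66 beside -0.01 for all genes, and 0 passed. Avp, the vasopressin gene, stood at 312, 116 and 49 CPM in intact and 51.3, 34.3 and 37.6 CPM in ovariectomized pools (-1.95 ± 0.55, edgeR unadjusted p 0.00283). Oxt, the oxytocin gene, stood at 353, 203 and 99.6 CPM in intact and 100.1, 92.1 and 104 CPM in ovariectomized pools (-1.15 ± 0.40). Vip, which encodes vasoactive intestinal peptide, a transmitter of the circadian clock neurons, stood at 21.5, 26.5 and 6.39 CPM in intact and 7.25, 1.73 and 5.81 CPM in ovariectomized pools (-1.88 ± 0.69). In all 3 genes intact replicate 2 lay inside the ovariectomized range. Against the mean of replicates 0 and 1 the list had 24 of 24 members below 0 and a median of -0.81. Against replicate 2 it had 16 of 24 above 0 and a median of 0.13. These 2 comparisons share the ovariectomized pools. Replicate 2 lay within the ovariectomized range for 15 of the 24, or 62.5%, beside 54.6% of all tested genes. Trh, the gene of thyrotropin-releasing hormone, changed sign in libraries 11 to 30 alone, from -0.66 to 0.19. In the supernatants Vip did not overlap, with 21, 13.4 and 8.07 CPM in intact and 5.81, 3.72 and 3.76 CPM in ovariectomized pools (edgeR unadjusted p 0.00364). Scg2, a granin of the dense-core vesicles that hold peptides, did not overlap (283, 437 and 207 CPM in intact, 206, 181 and 191 CPM in ovariectomized pools, -0.68 ± 0.27). Its 25-member list of peptide processing and vesicle genes had 8 members above and 17 below 0, with 18 of 25 below against replicates 0 and 1 (median -0.27) and 18 of 25 above against replicate 2 (median 0.25).

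Steroid receptors did not share a direction. Of 20 tested receptors and coregulators 12 lay above and 8 below 0, with a median log2 of 0.05. Esr2, estrogen receptor beta and the estrogen receptor known from GnRH neurons, was near the floor of detection at 0.105, 0.25 and 0.271 CPM in intact and 1.06, 2.32 and 2.47 CPM in ovariectomized pools. The groups did not overlap (3.20 ± 1.24, edgeR unadjusted p 0.021), and the supernatants held 1.8, 1.19 and 0.887 CPM in intact and 0.943, 0.707 and 2.04 CPM in ovariectomized pools. Esr1, estrogen receptor alpha, stood at 8.07, 4.4 and 10.6 CPM in intact and 7.28, 5.99 and 9.7 CPM in ovariectomized pools, with overlapping groups and a difference of -0.01 ± 0.70. Pgr, the progesterone receptor gene and a classical estradiol target, stood at 25.8, 34.3 and 31.4 CPM in intact and 24.4, 25.4 and 12.2 CPM in ovariectomized pools. Its groups did not overlap in the immunoprecipitate (-0.56 ± 0.28, edgeR unadjusted p 0.0605) or in the supernatant (34.5, 35.8 and 35.9 against 28.8, 28.8 and 32.9 CPM). Prlr, the prolactin receptor gene, did not overlap either (17.7, 16.8 and 15.3 against 13.7, 8.99 and 14.9 CPM, -0.41 ± 0.28). The 29 steroid-responsive hypothalamic genes, which include Kiss1, Pgr, Nts and Gal, had 8 members above and 21 below 0 with a median of -0.29. Against replicate 2 the list had 18 of 29 below 0 and a median of -0.08. Srd5a1, the steroid 5-alpha-reductase gene that turns progesterone and testosterone into reduced steroids, stood at 23.4, 17.1 and 14.1 CPM in intact and 15.8, 5.59 and 6.77 CPM in ovariectomized pools (-0.96 ± 0.41).

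Among the receptors for other peptides, amines and prostaglandins, 23 of 49 lay above and 26 below 0 with a median of -0.13. Npy1r, a neuropeptide Y receptor, stood at 3.94, 10.1 and 5.85 CPM in intact and 10.05, 14.3 and 11.7 CPM in ovariectomized pools (0.85 ± 0.39), while Npy2r stood at 17.6, 20.6 and 13.7 CPM in intact and 7.8, 7.13 and 13.7 CPM in ovariectomized pools (-0.86 ± 0.40). The groups overlapped for both. Cckbr, a cholecystokinin receptor gene, was lower in all 3 ovariectomized pools (7.04, 9.25 and 5.26 against 3.85, 2.62 and 2.76 CPM, -1.22 ± 0.84), as was the histamine receptor gene Hrh1 (9.54, 11.2 and 8.02 against 7.44, 5.48 and 4.15 CPM, -0.75 ± 0.35). Mc4r, the melanocortin receptor known from appetite control, overlapped through replicate 2 (10.6, 11.3 and 3.08 against 1.15, 2.59 and 5.08 CPM).

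Ion channel genes had members on both sides. Cacna1a, the pore of P/Q-type calcium channels that trigger transmitter release, lies on chromosome 8 from 84388440 to 84640246 and stood at 37.4, 25.5 and 15.3 CPM in intact and 14.9, 14.5 and 9.62 CPM in ovariectomized pools. Replicate 2, at the lower edge of the intact pools, lay just above the highest ovariectomized pool. The log2 difference was -1.001 ± 0.33 (edgeR unadjusted p 0.00819), and -0.23 in libraries 11 to 30 alone. Cacna2d1, an auxiliary calcium channel subunit gene, differed by -0.63 ± 0.29 with overlapping groups, and Cacna1g, a T-type channel gene, by -0.97 ± 0.43, but by 0.62 in libraries 11 to 30 alone. The 37 calcium, sodium, HCN and TRP channels had 19 members above and 18 below 0.

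Of 39 potassium channel genes 24 lay above and 15 below 0 with a median of 0.06. Kcnb2, a delayed-rectifier channel gene, stood at 4.13, 4.35 and 6.74 CPM in intact and 9.17, 8.34 and 13.3 CPM in ovariectomized pools without overlap (1.02 ± 0.39). Kcnma1, the large-conductance calcium-activated channel gene, stood at 19.2, 37.4 and 29.2 CPM in intact and 23.3, 17.4 and 10.6 CPM in ovariectomized pools (-0.74 ± 0.32). The AMPA receptor subunit gene Gria4 was higher in every ovariectomized pool (18.9, 22.4 and 26.4 against 36.6, 31.2 and 34.7 CPM, 0.60 ± 0.22), in a list of 17 ionotropic glutamate receptor genes with 12 above and 5 below 0.

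Further genes of the 22 act in signalling. Arrb1, beta-arrestin 1, which ends G protein signalling of many receptors, lies on chromosome 7 from 99535466 to 99606771 and stood at 48.8, 42.8 and 50.1 CPM in intact and 74.5, 59.4 and 80.2 CPM in ovariectomized pools. All 3 intact pools, replicate 2 included, lay close together, and the difference was 0.60 ± 0.18 (edgeR unadjusted p 0.00405). Tyk2, a Janus kinase of cytokine receptors, stood at 15.4, 12.6 and 12.1 CPM in intact and 5.86, 6.21 and 5.5 CPM in ovariectomized pools, and both groups were tight (-1.19 ± 0.34, edgeR unadjusted p 0.00298). Tyk2 did not overlap in the supernatants either (9.44, 8.67 and 9.45 against 6.94, 7.67 and 4.98 CPM). Card10, a scaffold of NF-kappaB signalling, stood at 3.94, 6.39 and 6.91 CPM in intact and 14.5, 11.1 and 19.1 CPM in ovariectomized pools (1.37 ± 0.36). Daam2, a formin of Wnt signalling, stood at 12.5, 11 and 3.6 CPM in intact and 2.0, 3.08 and 2.86 CPM in ovariectomized pools (-1.77 ± 0.58), with replicate 2 close to the ovariectomized pools.

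Mmp16, a membrane-bound matrix metalloproteinase on chromosome 4 from 17852893 to 18119145, stood at 20.1, 12.6 and 19.5 CPM in intact and 4.58, 9.39 and 3.93 CPM in ovariectomized pools. Here replicate 2 resembled intact replicate 0 and not the ovariectomized pools (-1.54 ± 0.40, edgeR unadjusted p 0.00168; -1.70 in libraries 11 to 30 alone). In the supernatants the groups overlapped (19.8, 15.7 and 13.7 CPM in intact and 10.9, 13.1 and 20.6 CPM in ovariectomized pools). Col25a1, a transmembrane collagen of neurons, stood at 17, 15.2 and 12.1 CPM in intact and 6.62, 5.21 and 5.69 CPM in ovariectomized pools (-1.34 ± 0.36). Tmem215 stood at 9.57, 7.77 and 7.18 CPM in intact and 0.698, 1.48 and 4.76 CPM in ovariectomized pools (-1.82 ± 0.61), where 1 ovariectomized pool lay nearer to the intact ones. Agxt2l1, now called Etnppl, an enzyme of phosphoethanolamine breakdown that astrocytes express, stood at 21.2, 21.6 and 18.7 CPM in intact and 9.01, 13.2 and 9.8 CPM in ovariectomized pools (-0.94 ± 0.28).

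The remaining higher genes had log2 differences between 0.74 and 1.23. They were Fam189a1 (1.23 ± 0.37), the zinc-finger factor Zbtb43 (1.13 ± 0.36), the galactosyltransferase B3galt1 (1.02 ± 0.33), the lysosomal enzyme Naglu (0.95 ± 0.31), the nuclear RNA decay factor Zcchc8 (0.86 ± 0.29) and the ubiquitin ligase subunit Fbxl14 (0.74 ± 0.23). For Zbtb43 the pools stood at 9.62, 6.44 and 12.4 CPM in intact and 27, 15.5 and 19.98 CPM in ovariectomized mice, for Naglu at 6.02, 6.02 and 5.45 CPM in intact and 10.5, 15.3 and 8.01 CPM in ovariectomized pools. Replicate 2 was the highest intact pool for each of them except Naglu, where it was the lowest. In the supernatants these 6 genes lay between -0.20 and -0.06, on the other side of 0. Fam189a1 did not overlap there, but by a narrow margin (25.9, 25.7 and 23.63 CPM in intact and 20.4, 23.1 and 23.62 CPM in ovariectomized pools, edgeR unadjusted p 0.215). Without intact supernatant replicate 2, the library with more Y-linked reads, the 6 genes lay between -0.45 (Naglu) and -0.08 (Fbxl14).

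Of the 22 genes, 12 overlap another annotated gene, so their counts are uncertain: Kiss1, Snurf, Mmp16, Mir682, Col25a1, Snhg3, Tyk2, Cacna1a, Arrb1, Fbxl14, B3galt1 and Fam189a1. Snurf, which shares its locus with Snrpn and is expressed from the paternal allele, stood at 512, 93.9 and 219 CPM in intact and 89.4, 23.1 and 27.5 CPM in ovariectomized pools (-2.56 ± 0.83). Its lowest intact pool was replicate 1 and lay just above the highest ovariectomized pool, and its supernatants ran from 59.1 to 472 CPM with overlap. The annotated microRNA locus Mir682, which overlaps Gm4149, stood at 219, 143 and 54.7 CPM in intact and 51.4, 51 and 53.5 CPM in ovariectomized pools, with replicate 2 almost at the ovariectomized level, and these long-RNA libraries do not measure the mature microRNA. Snhg3, a host gene of small nucleolar RNAs next to Rcc1, stood at 17.6, 21.3 and 9.2 CPM in intact and 7.1, 6.72 and 7.08 CPM in ovariectomized pools (-1.20 ± 0.36). In the supernatants Snhg3 lay on the opposite side, with 7.18, 7.16 and 7.08 CPM in intact and 11.8, 8.41 and 7.22 CPM in ovariectomized pools. Its fraction test gave -1.52 ± 0.39 (edgeR unadjusted p 0.000728, adjusted p 0.664), which again follows in part from the choice of the gene.

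**Figure D3:**
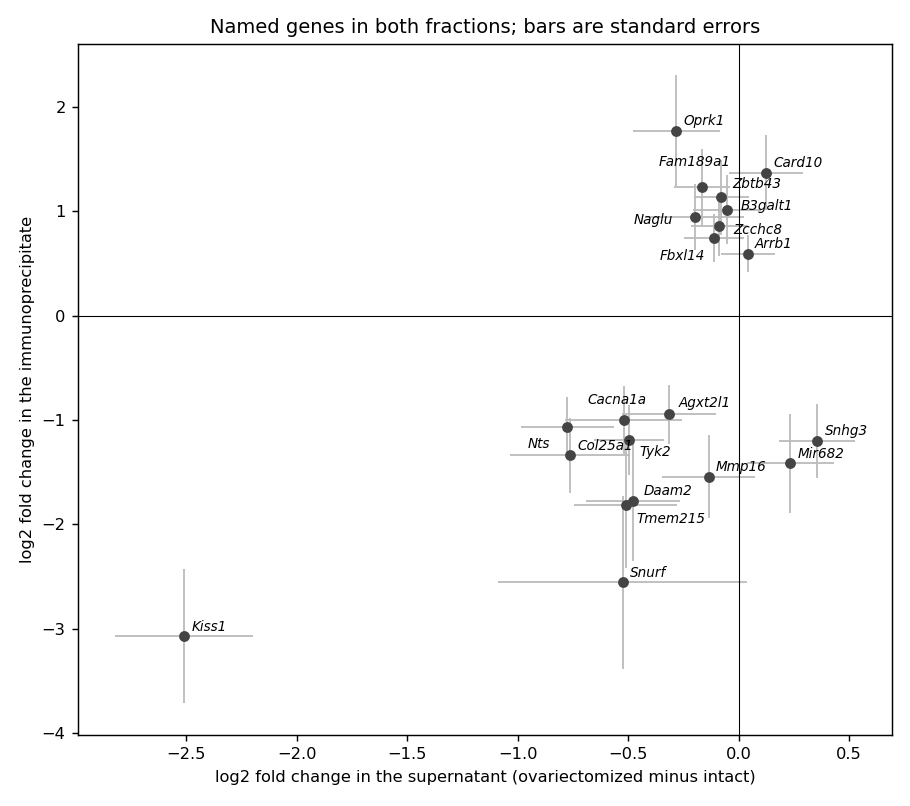
Log2 difference (ovariectomized minus intact) of 21 of the 22 genes in the supernatant (horizontal axis) and the immunoprecipitate (vertical axis), 1 point per gene with standard errors as bars. Kiss1 lies far out in both fractions (-3.07 and -2.51), while Oprk1 lies above 0 in the immunoprecipitate and below 0 in the supernatant.

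Of the 22 genes, 12 had the same sign in the supernatant of the same mice and 3 did not overlap there in the same direction: Kiss1, Tyk2 and Nts. Snhg3 and Fam189a1 did not overlap there in the opposite direction, both by a narrow margin. Groups did not overlap for 6.64% of all genes compared in the supernatant. Without intact supernatant replicate 2 also 12 had the same sign, but 7 did not overlap in the same direction and 5 in the opposite one. Fewer intact pools leave less room for overlap, and the share of all genes was not counted for that refit. The test of whether the ovariectomy difference depended on the fraction called 0 of 16713 genes in edgeR (0%), with 1248 at an unadjusted p under 0.05 (7.47%), while DESeq2 called 10 and limma voom 0. The lowest adjusted p of that edgeR test was 0.145, for Slitrk6. The test took both fractions of a pool as independent and gave them a shared spread. With the pool as a block the lowest edgeR adjusted p was 0.759. Slitrk6, a membrane protein of neurite growth, stood at 0.0526, 0.125 and 0.123 CPM in intact and 3.61, 2.78 and 7.6 CPM in ovariectomized immunoprecipitates, and at 2.71, 1.43 and 1.01 CPM in intact and 0.943, 0.931 and 1.42 CPM in ovariectomized pools in the supernatants. All 3 intact immunoprecipitates, replicate 2 included, were near 0. The log2 difference of Slitrk6 was 5.49 ± 1.13 in edgeR (unadjusted p 0.000234), and DESeq2 gave an adjusted p of 0.000176. Slitrk6 and Lrrk1 were, beside Kiss1, the genes that DESeq2 called on all 3 pools of a group. Lrrk1, a protein kinase, stood at 0.0788, 0 and 0.469 CPM in intact and 2.31, 2.67 and 3.49 CPM in ovariectomized pools, with a DESeq2 adjusted p of 0.045. The other 2 genes of DESeq2, Slc45a3 and D730039F16Rik, rest on 1 or 2 pools above 0 in 1 group.

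Without intact replicate 2, the immunoprecipitate comparison called 2 genes in edgeR, Tacr3 and Avl9, and 2345 reached an unadjusted p under 0.05. Avl9, chosen after its values were seen, stood at 5.41, 4.42 and 33 CPM in intact and 32, 27.3 and 24.8 CPM in ovariectomized pools, and its difference of 2.53 without replicate 2 was -0.23 in libraries 11 to 30 alone. The other single omissions gave 329 genes without intact replicate 0 and 406 without replicate 1 at that unadjusted p, and 0 calls each. With replicates 0 and 1 both left out, 189 genes reached it and 0 were called. Without replicate 2 the intact and ovariectomized female pools also differ in library numbering, so ovariectomy and numbering cannot be told apart between them. Genes in which replicate 2 follows the ovariectomized pools differ among the intact pools, and the cause was not tested.

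**Figure D4:**
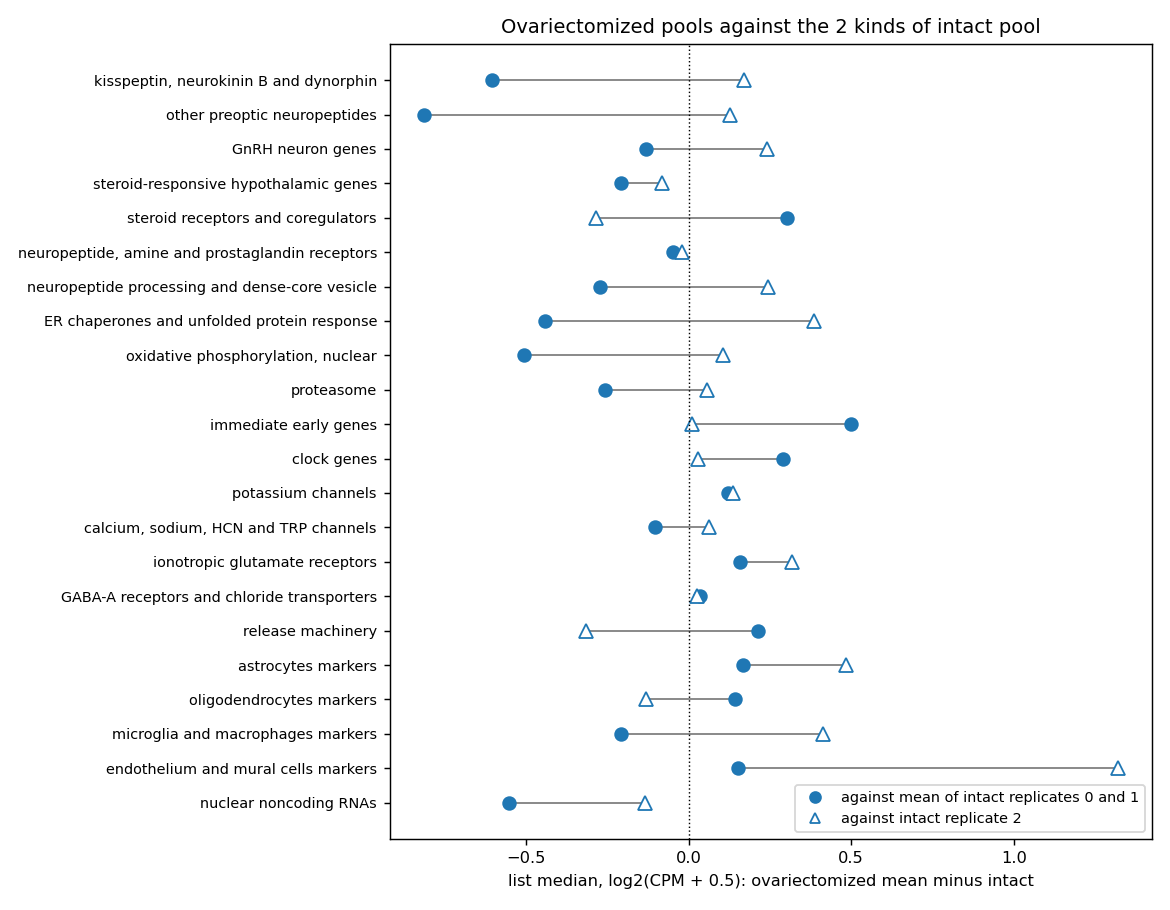
Median log2 difference of 22 gene lists when the ovariectomized immunoprecipitates are set against the mean of intact replicates 0 and 1 (filled circles) or against intact replicate 2 (open triangles), on log2(CPM + 0.5). Other preoptic neuropeptides move from -0.81 to 0.13 and nuclear genes of oxidative phosphorylation from -0.51 to 0.11, while potassium channels stay at 0.12 and 0.14.

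Nuclear genes of oxidative phosphorylation, coding for subunits of the respiratory complexes, followed the same split. Of 52 members 10 lay above and 42 below 0, with a median log2 of -0.33 and 0 called. Cox7c, a cytochrome c oxidase subunit gene, stood at 557, 430.4 and 210.3 CPM in intact and 219.98, 255 and 225 CPM in ovariectomized pools (-0.77 ± 0.35), and Ndufa2, a complex I subunit gene, at 394, 321 and 169 CPM in intact and 175, 192 and 179 CPM in ovariectomized pools (-0.69 ± 0.30). For both, replicate 2 was the lowest of all 6 pools. The list median was -0.51 against replicates 0 and 1 and 0.11 against replicate 2, where 40 of 52 lay above 0. In the supernatants its median was 0.34, and 0.35 without intact supernatant replicate 2. Proteasome genes lay below 0 for 26 of 31 with a median of -0.18, which was -0.26 against replicates 0 and 1 and 0.06 against replicate 2.

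ER chaperone and unfolded protein response genes, which fold and sort secreted proteins, lay below 0 for 19 of 25 with a median of -0.23. Hspa5, the chaperone BiP, stood at 304, 357 and 143 CPM in intact and 178, 159 and 198 CPM in ovariectomized pools (-0.58 ± 0.37), and Ddit3, a stress-response factor, at 79.9, 71 and 54.3 CPM in intact and 40.9, 55.5 and 51.7 CPM in ovariectomized pools (-0.47 ± 0.23). The list median was -0.44 against replicates 0 and 1 and 0.38 against replicate 2, so the sign of Hspa5 and of the list rests on the intact pool. Hspa5 differed by 0.33 in libraries 11 to 30 alone.

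Immediate early genes, which neurons switch on with activity and also during tissue handling, lay above 0 for 17 of 22 with a median of 0.37 and 0 called. Nr4a1, an orphan nuclear receptor gene, stood at 10.6, 26.2 and 31.8 CPM in intact and 50.3, 61 and 31.8 CPM in ovariectomized immunoprecipitates (1.06 ± 0.51, edgeR unadjusted p 0.0536). Replicate 2 equalled the lowest ovariectomized pool to within 0.1 CPM. Its supernatants, at 30.5, 27.3 and 39.4 CPM in intact and 74.5, 75.7 and 40.4 CPM in ovariectomized pools, did not overlap either. Klf4 stood at 0.972, 1.52 and 1.92 CPM in intact and 4.25, 5.02 and 2.76 CPM in ovariectomized pools (1.44 ± 0.55), and Egr1, a marker of recent activity, at 74.1, 45.4 and 136 CPM in intact and 134, 182 and 95.9 CPM in ovariectomized pools with overlap (0.69 ± 0.39). The list median was 0.50 against replicates 0 and 1 and 0.01 against replicate 2, and 0.32 in the supernatants. Clock genes lay above 0 for 11 of 18 with a median of 0.22. Of these, Bhlhe40 stood at 33.8, 39.1 and 35.5 CPM in intact and 51.4, 56.7 and 52.8 CPM in ovariectomized pools without overlap (0.57 ± 0.25) and Per1 at 14.6, 13.4 and 12.7 CPM in intact and 18.7, 14.6 and 16.7 CPM in ovariectomized pools (0.30 ± 0.29).

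**Figure D5:**
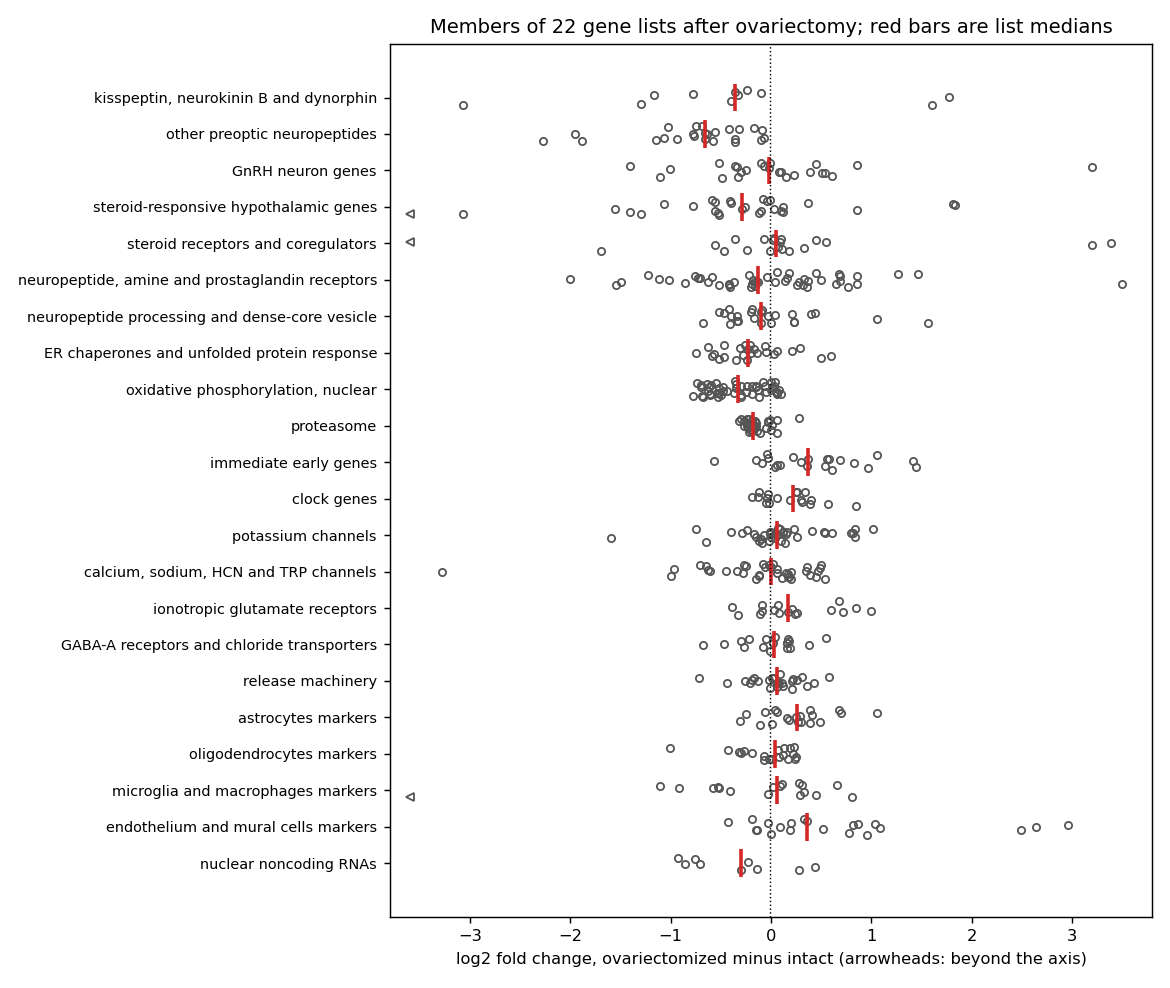
Log2 difference (ovariectomized minus intact, immunoprecipitate) of every tested member of 22 gene lists, 1 circle per gene, with the list median as a red bar and arrowheads for members beyond the axis. All 24 other preoptic neuropeptides lie left of 0 (median -0.66), immediate early genes lie mostly to the right (median 0.37), and 0 members of any list passed the test.

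Genes of inherited GnRH deficiency and of the FGF pathway, which guide GnRH neurons on their way into the brain, lay above 0 for 15 and below 0 for 13 of 28. Flrt3, a partner of FGF receptors, stood at 17.3, 19.2 and 25 CPM in intact and 30.3, 36.8 and 50.6 CPM in ovariectomized pools without overlap (0.94 ± 0.40). The semaphorin receptor gene Plxna1 stood at 43.2, 39 and 37.3 CPM in intact and 60.9, 43.1 and 69.5 CPM in ovariectomized pools (0.54 ± 0.21), and its co-receptor Nrp2 at 29.5, 39.4 and 23.5 CPM in intact and 24.8, 16 and 16 CPM in ovariectomized pools (-0.71 ± 0.28), with overlap for both. The 25 genes known from GnRH neurons had 11 members above and 14 below 0 and a median of -0.03. Of that list 2 members (Esr2 and Lgr4) lay higher and 1 lower without overlap, beside 3.71% and 3.43% of all genes. The lower one was Pcsk2, a prohormone convertase gene (50.1, 73.3 and 49.1 against 46.3, 44.9 and 44.9 CPM, -0.34 ± 0.22).

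Markers of other cells of the punch were counted beside these values. Astrocyte markers lay above 0 for 16 of 20 (median 0.26), with a summed level of 1548 to 2001 CPM in intact and 1769 to 2084 CPM in ovariectomized immunoprecipitates, and the gap-junction gene Gja1 stood at 8.09, 13.5 and 15.6 CPM in intact and 26.7, 36.1 and 14.5 CPM in ovariectomized pools. Endothelial and mural markers lay above 0 for 15 of 21 (median 0.35), summing to 309.6 to 823 CPM in intact and 449.7 to 688 CPM in ovariectomized pools. Of these, Flt1, a receptor of vascular endothelial growth factor, stood at 0.867, 2.23 and 0.568 CPM in intact and 10.7, 9.69 and 2.66 CPM in ovariectomized pools (2.64 ± 0.86, edgeR unadjusted p 0.00806), and the blood-brain barrier transporter Slco1a4 at 1.73, 1.77 and 2.34 CPM in intact and 19.6, 10.1 and 3.25 CPM in ovariectomized pools. Their median was 0.15 against replicates 0 and 1 and 1.32 against replicate 2. Oligodendrocyte markers summed to 1512 to 2105 CPM in intact and 1578 to 2350.1 CPM in ovariectomized pools (median 0.04), and microglia and macrophage markers to 68.4 to 127 and 55.1 to 137 CPM (median 0.06). The summed levels overlapped between the groups for all of these lists, and 0 of their members were at 0 in all 6 pools. The part of these cells in the differences above was not tested.

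The remaining lists had 0 members called. RFamide peptides and their receptors, a family of neuropeptides that includes inhibitors of GnRH neurons, lay above 0 for 0 and below 0 for 7 of 7, with a median of -1.37 in the fit. Their levels were low, and 0 of them reached an unadjusted edgeR p under 0.05. All 8 members summed to 13.1 to 26.3 CPM in intact and 9.72 to 16.3 CPM in ovariectomized immunoprecipitates, with overlap. Their median was -0.98 against replicates 0 and 1 and -0.44 against replicate 2, where 5 of 7 lay below 0. Genes of transmitter identity lay above 0 for 14 of 18 and those of the release machinery for 17 of 26. The latter had a median of 0.21 against replicates 0 and 1 and -0.32 against replicate 2. GABA-A receptor and chloride transporter genes lay above 0 for 10 and below 0 for 8 of 18, and steroid synthesis genes for 5 and 5 of 10. Pan-neuronal markers lay above 0 for 7 and below 0 for 8 of 15, oligodendrocyte precursor markers for 3 and 5 of 8, ependymal and tanycyte markers for 9 and 3 of 12, and choroid plexus and meningeal markers for 6 and 7 of 13. Markers of blood lay above 0 for 3 of 3 (median 0.01) and those of olfactory and septal tissue for 7 of 12.

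Noncoding RNAs listed as nuclear, among them the ribosomal RNA precursor Rn45s, lay below 0 for 7 of 9 with a median of -0.30. Ribosomes should not carry them, apart from Rn45s and possibly Snhg11, which GENCODE types as protein-coding. Meg3 stood at 487, 522 and 267 CPM in intact and 271, 241 and 158 CPM in ovariectomized immunoprecipitates (-0.93 ± 0.27, edgeR unadjusted p 0.00418) and at 1082, 807 and 445 CPM in intact and 798, 397 and 364 CPM in ovariectomized pools in the supernatants. Snhg11 stood at 476, 472 and 290.1 CPM in intact and 282, 235 and 167 CPM in ovariectomized pools (-0.86 ± 0.25). Its groups did not overlap, but by a narrow margin at intact replicate 2. For Meg3 replicate 2 lay inside the ovariectomized range.

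Whether gonadectomy acted differently in males was tested on the same 13 immunoprecipitates. Intact male replicates 0 and 1 carry library numbers 9 and 10, and the castrated male pools carry 28 to 30. Library numbering was thus uneven between the groups in males as well. The difference between the sexes called 0 of 16160 genes in edgeR (0%), with 535 at an unadjusted p under 0.05 (3.31%), while DESeq2 called 5 and limma voom 0. The lowest unadjusted p among all genes, 0.000491, was that of Mmp16 (log2 2.41 ± 0.54 for males minus females), but its edgeR adjusted p was 1. Mmp16 averaged 12.7 ± 4.68 CPM in intact and 23.2 ± 1.74 CPM in castrated male immunoprecipitates (SD, n = 4 and 3 pools), against 17.4 ± 4.13 and 5.97 ± 2.98 CPM in intact and ovariectomized females (SD, n = 3 each). Kiss1 averaged 2.73 ± 0.506 CPM in intact and 0.654 ± 0.662 CPM in castrated males. Its difference between the sexes was 1.00 ± 0.84 (edgeR unadjusted p 0.252). Both Mmp16 and Kiss1 were chosen on female values that this test also holds.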

How the data were processed

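The authors deposited estimated counts of fragments per gene for 23107 genes. Their processing notes name the genome build mm10, the aligners TopHat2 2.0.9 and Bowtie2 2.1.0, Cuffdiff 2.1.1, Cufflinks and FastQC. The annotation is not stated in the sources used here, and the labelled SMART-Seq kit does not mark strand. Estimated counts were rounded (0.72% of values were not whole within 0.05). Totals were 27217253 to 56668582 per library. Female immunoprecipitates of 1 group differed with a chi-square over its degrees of freedom of at least 39.6, so all pools were kept apart.

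The main test was that of edgeR 4.0.16 under R 4.3.3 (TMM, filterByExpr with minimum count 10 and minimum total 15, two-sided quasi-likelihood F-test, Benjamini-Hochberg over all genes, called under 0.05). The 13 immunoprecipitates in 4 groups, or the 13 supernatants, shared 1 fit, and the fraction difference used all 26 libraries. That last fit did not pair the fractions of a pool and estimated their spread together, although the supernatants spread less. The labels describe replicates as biological and as pools of mice. DESeq2 1.42.0, limma 3.58.1 (voom), other scalings, no filter, a replicate block, a term for library numbering, libraries 11 to 30 only and leaving out each pool were alternatives. The fit without intact replicates 0 and 1, and the supernatant and fraction values without intact supernatant replicate 2, were added after seeing the data. The script was tested on simulated data.

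Named genes were up to 12 per direction with an unadjusted p under 0.01, groups without overlap and a mean of at least 5 CPM, plus members of 32 lists (651 of 655 genes matched, 10 by synonym). The comparison, members and lists were chosen with earlier results of these data known. Positions are GENCODE on mm10 and promoters RefSeq. Genes of cytosolic ribosomal proteins and of the mitochondrial genome were left out of the named genes and are not reported. The values of 1 of the 22 named genes are not reported here.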

Additional observations from a re-analysis of the deposited data

How the results depend on the processing

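Over 17 alternatives to the immunoprecipitate comparison, all 22 named genes had the same direction in each, which their choice partly fixes, and edgeR called 0 genes higher and 0 lower in all but 1 of its refits. DESeq2 called 3 higher and 2 lower there, and single omissions gave 0 to 2 higher and 0 lower. In the supernatant, where edgeR called 1 higher (Gm5643) and 1 lower (Kiss1), DESeq2 gave 2 and 6, limma voom 0 and 0, the replicate block 1 and 2, and the fit of only the groups compared 1 and 0. The numbering term gave 0 and 1, libraries 11 to 30 only 0 and 1 (Eif2s3y, not Kiss1), and single omissions 1 to 424 higher and 0 to 81 lower. The highest counts there came without ovariectomized supernatant replicate 2, and 0 lower genes without replicate 1. For the fraction difference DESeq2 gave 7 and 3 and single omissions 0 to 51 and 0 to 3, the highest without intact immunoprecipitate replicate 2, while the pool as a replicate block gave 0. For the sex difference DESeq2 gave 2 and 3. The same-numbered female immunoprecipitates correlated in their deviations at -0.05, 0.03 and -0.01, so the numbers do not pair them, and the replicate block gave 0 calls with 596 genes at an unadjusted p under 0.05. Single genes changed sign as follows, and the cause was not tested. With libraries 11 to 30 only and without intact replicates 0 and 1, the values were 1.11 and 1.10 for Gnrh1, 0.18 and 0.17 for Kiss1r, 0.13 and 0.12 for Pdyn, 0.19 and 0.19 for Trh, 0.62 and 0.62 for Cacna1g, 0.11 and 0.11 for Ndufa2, 0.15 and 0.15 for Cox7c, 0.14 and 0.14 for Cox8a, 0.33 and 0.32 for Hspa5, and -0.23 and -0.24 for Avl9. With the numbering term they were 0.88 for Gnrh1, 0.23 for Kiss1r, 0.019 for Ndufa2, 0.066 for Cox7c, 0.084 for Cox8a and 0.37 for Hspa5. Esr1 (-0.007) went to 0.006 in DESeq2, 0.11 in limma voom, 0.007 with only the groups compared and 0.007 with size factors of DESeq2, 0.048 with the replicate block, and ran from -0.288 to 0.322 over single omissions. Of 544 recomputed list medians 457 stayed within 1 SD and 87 moved. With 3 pools per group, differences within the spread of the immunoprecipitates were not detectable, and fits that leave 1 intact pool assume that it varies like the other groups.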
